A study of Mus musculus with 4 samples.

Results

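Isolated peaks are the peaks of the deposited eIF4A2 list that stood alone. A peak was isolated when no other listed peak lay on the same chromosome and strand within 50000 bases on either side. Positions alone chose them, and neither the fold nor the width was used. Of the 47777 peaks in the list, 2231 (4.67%) were isolated, and the remaining 45546 are called the other peaks. The isolated peaks covered 75.8 kb, or 4.45% of the bases under all peaks.

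The list came from eCLIP of J1 mouse embryonic stem cells of strain 129S4/SvJae, grown without feeder cells in serum and leukemia inhibitory factor. All cells were crosslinked with ultraviolet light, and no genotype or treatment differed between the libraries. There were 2 IP libraries, made with an antibody against eIF4A2, and 2 input libraries, labelled as biological replicates 1 and 2 of each kind. For each peak the authors gave a single log2 fold, IP relative to input, and no values per library, so the spread between replicates and the depth are unknown. No gene is named and no sequence is given, because positions are in mm9 and no annotation or genome of that build was used here.

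eIF4A2 is an RNA helicase of the DEAD-box family and a paralog of eIF4A1, the helicase that unwinds the 5′ leader of mRNAs when translation starts. In eCLIP, a protein is fixed to the RNA it touches, recovered with an antibody, and the position of contact is read from where the sequenced fragments end; the input library gives the RNA present before recovery. A transcript that is contacted along its length usually gives a chain of peaks on its strand, and introns can place peaks of one mouse gene far apart. An isolated peak is here a single listed position with no second listed position nearby on the same strand. All listed log2 folds were above 1, so weaker enrichment nearby would not be seen.

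Distances of the isolated peaks to their same-strand neighbours, which the rule bounds from below, ranged from just over the limit to several Mb. The nearer of the same-strand neighbours lay at a median of 113 kb (interquartile range 69.3 to 262 kb), and the farther at a median of 511 kb. The nearer neighbour was 50 to 100 kb away for 997 of the 2231. Only 26 isolated peaks were the first or last peak of their strand on a chromosome and so had a neighbour on 1 side alone. On the opposite strand, 1450 of 2231 (65.0%) had no peak within 50000 bases either, compared with 61.2% of the other peaks. Some isolated peaks followed each other along a strand, and how many would do so in a random order was not computed. A total of 1133 (50.8%) had a non-isolated peak or the end of the strand on each side in the order of peaks, 572 (25.6%) came in pairs and 321 (14.4%) in threes. The longest series, of 7 isolated peaks each, were found on chromosome 2, minus strand, at 105744489 to 110677936 (4.93 Mb) and on chromosome 12, plus strand, at 34052523 to 38717416 (4.66 Mb). Both series had log2 folds no higher than 2.24 and a median of 1.82.

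The fold of the isolated peaks was mostly drawn from a small set of recurring values. Their median log2 fold of IP over input was 1.82, which is 3.54-fold (interquartile range 1.41 to 2.24). The other peaks had a median of 1.65 (3.15-fold) and an interquartile range of 1.28 to 2.07. The mean log2 fold was 1.83 ± 0.0115 (SE over 2231 peaks) for the isolated peaks and 1.76 ± 0.00273 (SE over 45546 peaks) for the others, a difference of 0.07. When the list was first limited to 4-fold or above, the rule was applied anew and gave a different set of 2918 isolated peaks. In that limited list the direction turned, with an isolated median of 2.35 against 2.39. These errors, and all intervals in what follows (at 95%), cover only the counting of peaks. Peaks are not replicates of a condition, so the differences between isolated and other peaks are given with their intervals and without a test.

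The isolated median was itself a recurring value. The log2 fold of 1.82 was given to 591 isolated peaks (26.5%, Wilson interval 24.7 to 28.4%), against 3287 other peaks (7.22%, 6.98 to 7.46%). The difference was 19.3 percentage points (Newcombe interval 17.5 to 21.2). The 2231 isolated peaks held 193 distinct fold values in all and the 45546 other peaks 2731, counts that depend on the number of peaks. After a constant of 0.24 was subtracted from each log2 value, the value of 1.82 equalled a ratio of 3 to 1. In the same way, 1.24 equalled 2 to 1 and 2.24 equalled 4 to 1. A ratio is used below only as a name for a value, since the list holds no counts. The constant also decides which values are named by a ratio with a denominator of 1, and it was not varied.

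The 3-to-1 value was the commonest among isolated peaks, and the 2-to-1 value among the others. The 2-to-1 value was given to 298 isolated peaks (13.4%) and 8.79% of the others, and the 4-to-1 value to 221 (9.91%) and 3.92%. The 5-to-1 value was given to 120 isolated peaks (5.38%) and 2.23% of the others. Some values that needed larger whole numbers differed little in share. For example, 7 to 4 was given to 2.02% of isolated and 2.16% of other peaks, and the Newcombe interval of the difference ran from -0.67 to 0.54 percentage points. Ratios with a denominator of 1 (whole-number ratios) together made up 1366 isolated peaks (61.2%, Wilson interval 59.2 to 63.2%) against 26.2% of the others (25.8 to 26.6%). Values that matched no ratio with a denominator up to 10 were given to 107 isolated peaks (4.80%) and 25.3% of the others.

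**Figure D1:**
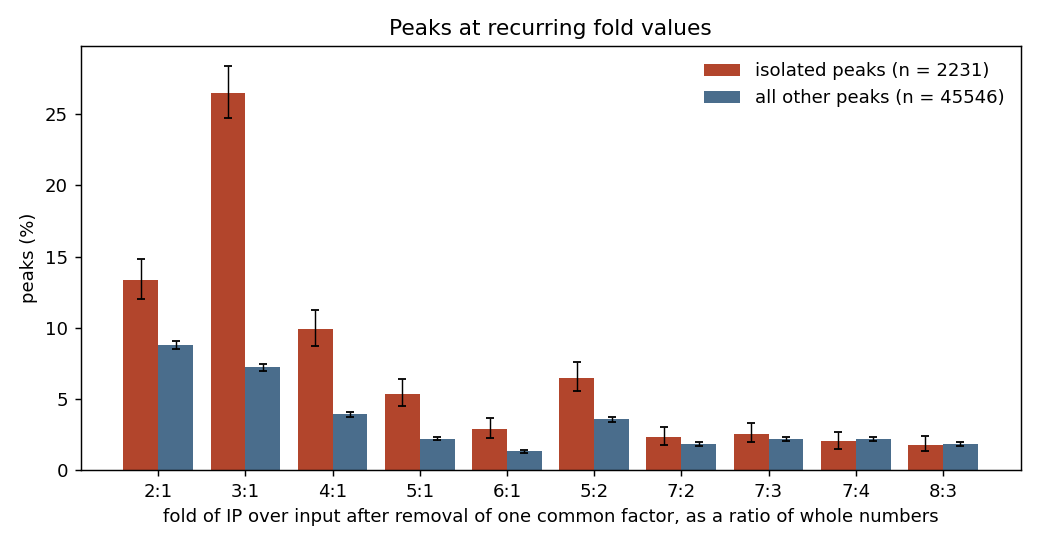
Share of peaks (%) at each of 10 recurring fold values, named by their ratio of whole numbers after one common factor was removed, for isolated peaks and all other peaks; bars start at 0 and error bars are Wilson 95% intervals. The ratio 3:1 held 26.5% of isolated peaks and 7.22% of the others, whereas 7:4 held 2.02% and 2.16%.

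The share at whole-number ratios was graded with distance and did not set in at the limit. It was 5.98% among peaks that touched a same-strand neighbour, 13.4% at up to 0.2 kb and 20.1% at 0.2 to 1 kb. It was 34.2% at 1 to 10 kb and 48.6% (Wilson interval 47.4 to 49.8%) at 10 to 50 kb. Within the isolated peaks it was 59.7% (56.6 to 62.7%) at 50 to 100 kb, 64.3% (60.2 to 68.3%) at 100 to 200 kb and 61.0% (57.3 to 64.6%) beyond that. The 3 intervals of the isolated peaks overlapped, the share did not rise steadily among them, and no interval of their differences was computed. On all 20 chromosomes with isolated peaks the share was higher for isolated than for other peaks, at 51.7 to 69.4% against 20.2 to 31.5%.

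**Figure D2:**
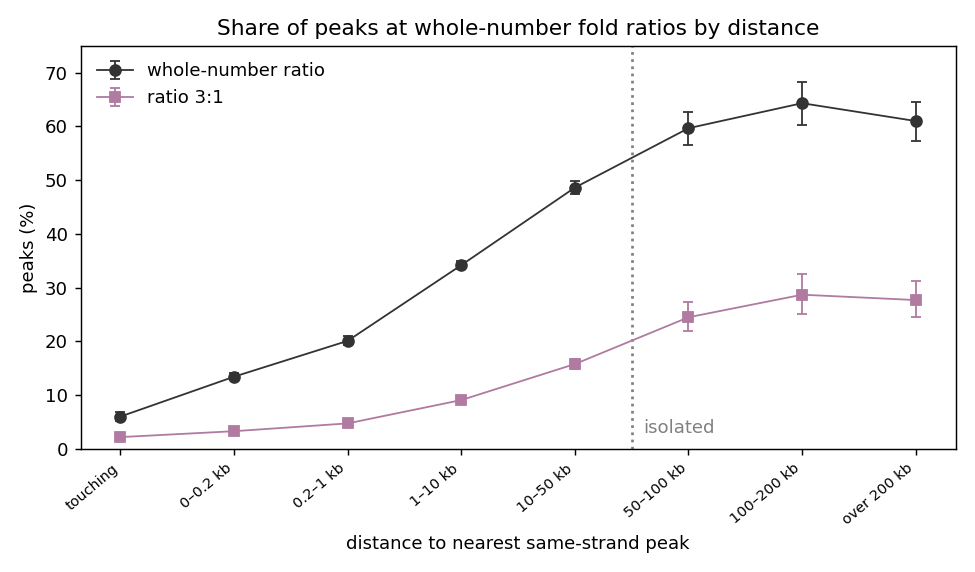
Share of peaks (%) at whole-number fold ratios and at the ratio 3:1, by distance to the nearest same-strand peak; error bars are Wilson 95% intervals and the dotted line marks the limit for isolated peaks. The whole-number share was 5.98% for touching peaks and 59.7 to 64.3% in the 3 groups of isolated peaks.

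High enrichment was about as frequent among isolated peaks as in the whole list. Of the isolated peaks, 663 were at 4-fold or above (a log2 fold of 2), or 29.7% (Wilson interval 27.9 to 31.6%), beside 28.3% of the whole list. At 8-fold or above (a log2 fold of 3) there were 79, or 3.54% (2.85 to 4.39%), beside 4.03% of the whole list. The difference from the other peaks was 1.45 percentage points (Newcombe interval -0.45 to 3.43) at 4-fold and -0.51 (-1.22 to 0.36) at 8-fold, and both intervals included 0. Whole-number ratios were given to 72 of these 79 (91.1%), compared with 67.3% of the other peaks that reached 8-fold.

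The 10 most enriched isolated peaks came from 6 chromosomes and had widths of 29 to 86 bases, and 5 were on the plus strand. The highest log2 fold, 4.33 (20.1-fold), ranked 44th in the list and was shared by a pair of peaks. One was on chromosome 12, minus strand, at 57446592 to 57446622, and its nearest same-strand peak was 525 kb away. The other was on chromosome 19, plus strand, at 5038926 to 5038970, with a same-strand peak 155 kb away. The neighbours of both lay well beyond the limit.

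Next came 3 peaks that shared a log2 fold of 4.15 (17.7-fold). The one on chromosome 2, minus strand, at 153171219 to 153171273 had a same-strand peak 80.7 kb away. On the opposite strand, a peak of log2 fold 1.6 began only 414 bases to its 5′ side. The one on chromosome 4, plus strand, at 146034954 to 146034986 was near the limit, with a same-strand peak at 54.4 kb, but its nearest opposite-strand peak was 1035 kb away. The one on chromosome 6, minus strand, at 128730845 to 128730930 was the widest of the 10.

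Chromosome 11 held 2 peaks with a log2 fold of 4.05 (16.5-fold), both on the plus strand, at 49696812 to 49696846 and at 120211681 to 120211709. A log2 fold of 3.82 was given to a plus-strand peak of chromosome 2 at 36100809 to 36100838 and to a minus-strand peak of chromosome 4 at 58517553 to 58517606. The last of the 10, on chromosome 4, minus strand, at 149689581 to 149689615, had a log2 fold of 3.81. Of the 10, 9 were at whole-number ratios. The opposite strand held a peak within 50000 bases for 4 of them.

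Isolated peaks had the same median width as the other peaks but were more often of middle width. The median was 32 bases in both groups (interval 31 to 33 for isolated peaks), and the interquartile range was 19 to 43 bases for isolated and 19 to 47 bases for other peaks. A width of 21 to 50 bases was found for 1273 isolated peaks (57.1%) and 52.3% of the others, a difference of 4.80 percentage points (Newcombe interval 2.68 to 6.89). Widths over 50 bases were rarer, at 14.7% against 20.6% (difference -5.93 percentage points, -7.39 to -4.36). Widths of at most 10 bases were also rarer, at 6.36% against 8.66% (difference -2.29 percentage points, -3.27 to -1.17). The order of the wide peaks depended on the comparison. Peaks with their nearest same-strand peak 10 to 50 kb away had an upper quartile of 40 bases, below the 43 of isolated peaks. Their 95th percentile was 62 bases, against 68 for isolated peaks.

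Median width varied with distance to the nearest same-strand peak. Touching peaks had a median width of 52 bases, peaks at up to 0.2 kb 39.5 bases, peaks at 0.2 to 1 kb 31 bases, and peaks at 1 to 10 and at 10 to 50 kb 28 bases each. Among isolated peaks the median was 29 bases at 50 to 100 kb, 33 at 100 to 200 kb and 35 beyond that. By median, the most remote isolated peaks were wider than peaks with a neighbour 0.2 to 50 kb away and narrower than those with one within 0.2 kb. The median log2 fold was also lowest between the extremes, with 1.75 for touching peaks, 1.56 at 1 to 10 kb and 1.64 at 10 to 50 kb. Unlike the width, it was highest among isolated peaks, at 1.82 in each of their 3 groups.

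**Figure D3:**
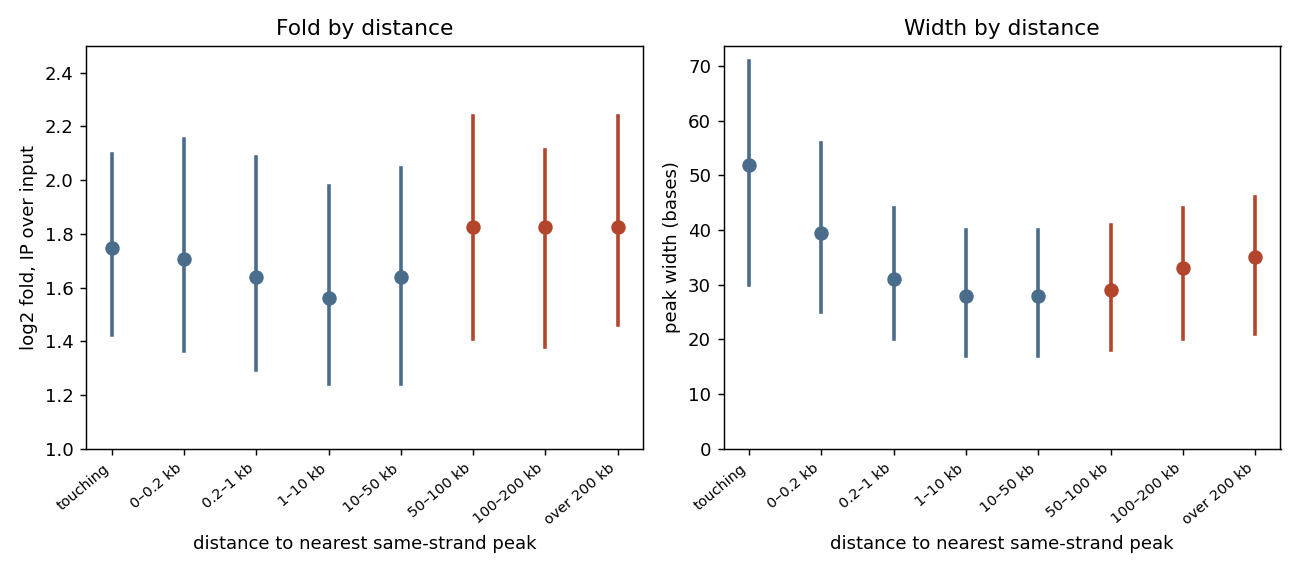
Median (point) and interquartile range (line) of log2 fold of IP over input and of peak width in bases, by distance to the nearest same-strand peak, with isolated peaks in red; the fold axis starts at the list's own limit of 1. Medians of the fold were lowest at 1 to 10 kb (1.56), and medians of width were lowest at 1 to 50 kb (28 bases).

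Width and fold were nearly unrelated among isolated peaks, with a Spearman coefficient of -0.02 over 2231 peaks and 0.04 over the others. The widest of 4 similarly sized groups of isolated peaks, at 44 to 185 bases, had values unlike those of the narrowest. It held 29 of the 79 peaks at 8-fold or more (5.28% of its 549 peaks), against 13 (2.30%) in the narrowest group of 1 to 19 bases. The groups between had 3.72% (20 to 32 bases) and 2.89% (33 to 43 bases), without a steady rise. Among the other peaks the share at 8-fold or more was 3.94% at 44 to 185 bases and 4.10% at 1 to 19 bases. The widest isolated group also had the lowest share at whole-number ratios, 37.9% against 74.1% in the narrowest group. At matched widths the other peaks had lower shares at whole-number ratios, 38.1% at 1 to 19 bases and 11.7% at 44 to 185 bases.

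The widest isolated peak covered 185 bases on chromosome 4, minus strand, at 120770557 to 120770741. Its log2 fold was 1.58, and its nearest same-strand peak was 51.4 kb away. The second, of 174 bases on chromosome 4, plus strand, at 106851331 to 106851504, had a log2 fold of 1.62 and an opposite-strand peak 668 bases to its 5′ side. A peak of 143 bases on chromosome 7, plus strand, at 123236875 to 123237017 had a log2 value of 2.05. The next were 133 bases wide on chromosome 8, plus strand, at 128519361 to 128519493, at a log2 fold of 1.82, and 132 bases wide on chromosome 18, minus strand, at 37803650 to 37803781, at a log2 fold of 1.7. None of these 5 reached 8-fold.

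The peak farthest from any same-strand neighbour was on chromosome X, minus strand, at 82957768 to 82957795, with 6.08 Mb to the nearest one and a log2 fold of 1.82. It was followed by minus-strand peaks on chromosome 1 at 115841108 to 115841144 (4.36 Mb, log2 fold 1.73) and on chromosome 5 at 16236531 to 16236583 (4.07 Mb, log2 fold 1.24). The minus-strand peak on chromosome 17 at 95147136 to 95147206 had 3.66 Mb to its nearest same-strand peak and 6105 kb to its nearest opposite-strand peak. The latter was the largest such distance of any isolated peak, and the log2 fold was 1.3. The plus-strand peak on chromosome 14 at 39193687 to 39193734 (3.54 Mb) alone of these 5 reached 8-fold, with a log2 fold of 3.05.

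At the limit itself, the isolated peaks just inside had their nearest same-strand peak at 50030, 50040 and 50057 bases, with log2 folds of 1.13, 1.82 and 3.56. The peaks just outside had it at 49987, 49987 and 49974 bases, with log2 folds of 2.24, 1.24 and 1.82. The first 2 of the latter were each other's neighbours on the plus strand of chromosome 6.

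Compared with all other peaks, isolated peaks more often had an opposite-strand peak at short range and less often at long range. The nearest lay at a median of 103 kb (interval 96.7 to 113 kb) from isolated peaks and at 73.8 kb (72.6 to 74.8 kb) from the others. Within 100 kb an opposite-strand peak was present for 48.9% of isolated and 59.0% of other peaks (difference -10.1 percentage points, Newcombe interval -12.3 to -8.02). Within 50000 bases the shares were 35.0% and 38.8% (difference -3.81, -5.81 to -1.76). This long-range difference depended on the comparison. Peaks with their nearest same-strand peak 10 to 50 kb away had a median distance of 107 kb (103 to 110 kb) to the opposite strand, and 28.8% (27.8 to 29.9%) had an opposite-strand peak within 50000 bases, which is below the isolated share. By chromosome, the isolated share within 50000 bases was lower than that of all other peaks on 11 and higher on 9. Within 1000 bases the order against all other peaks was the opposite: 75 isolated peaks (3.36%, Wilson interval 2.69 to 4.19%) against 1.64% of the others (1.53 to 1.76%), a difference of 1.72 percentage points (1.04 to 2.56).

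The short-range excess was not found against a comparison in which each group of peaks counted once. Each isolated peak is by its rule the 5′-most peak of its own group, taking the listed strand as that of the RNA. The other peaks were therefore joined into chains at up to 50000 bases, and the 5′-most peak of each of the 6110 chains was taken, a comparison chosen after the values were seen. Of these, 3.80% had an opposite-strand peak within 1000 bases, and the difference from isolated peaks was -0.44 percentage points (Newcombe interval -1.28 to 0.51). Within 100 kb the share of these 5′-most peaks was 57.6% (difference -8.71, -11.1 to -6.29). The whole-number share of the 5′-most peaks was 31.7%, and their median width was 37 bases, against 61.2% and 32 bases for isolated peaks.

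Close opposite-strand peaks lay mostly on the 5′ side, back to back with the isolated peak. This arrangement is called divergent, and mammalian promoters are known to be transcribed in both directions; whether a promoter lay between these peaks was not tested. Of the 74 isolated peaks with a non-overlapping opposite-strand peak as their nearest within 1000 bases, 67 had it on the 5′ side and 7 on the 3′ side (90.5% on the 5′ side, Wilson interval 81.7 to 95.3%). At 1 to 10 kb the 5′ share was 65.0% (57.8 to 71.6%) of 180, at 10 to 50 kb 51.9% (47.6 to 56.1%) of 526, and beyond that 48.8% (46.2 to 51.3%) of 1450. All other peaks had 88.4% (85.9 to 90.5%) on the 5′ side within 1000 bases and 48.9% (47.3 to 50.5%) at 1 to 10 kb. The 5′-most peaks of chains had 95.6% (92 to 97.6%) within 1000 bases and 74.7% (70.7 to 78.4%) at 1 to 10 kb. Both shares were higher than those of the isolated peaks. The intervals overlapped, which does not show the shares to be equal, and no interval of these differences was computed. At 10 to 50 kb the 5′-most peaks had 60.2% (57.8 to 62.5%), an interval above that of the isolated peaks.

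**Figure D4:**
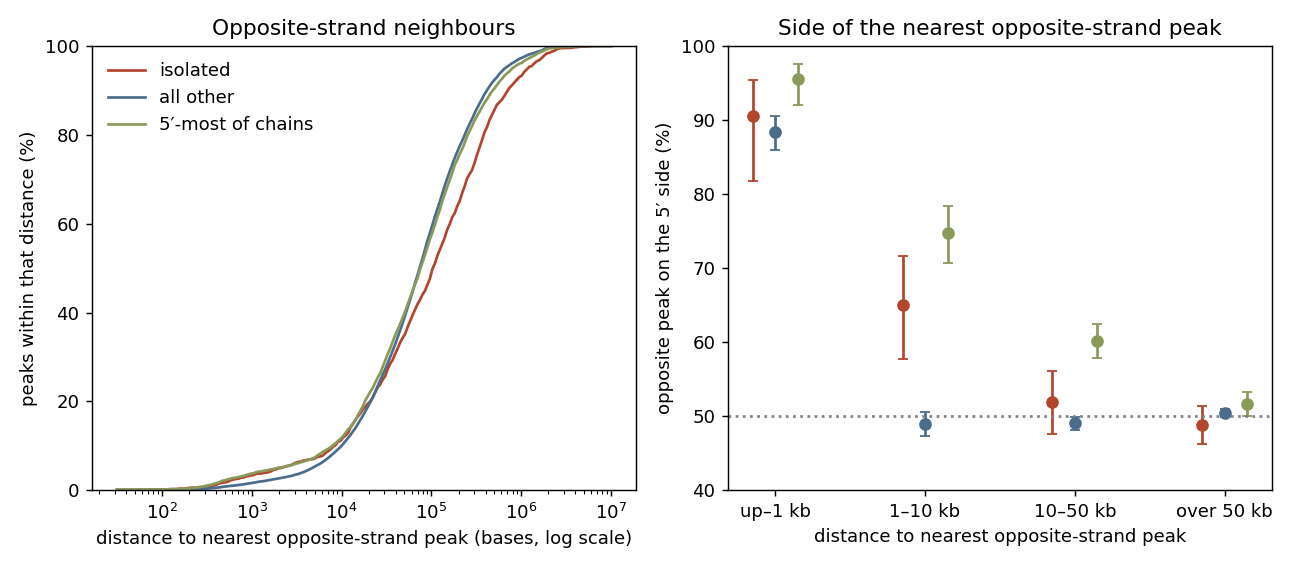
Left, cumulative share of peaks (%) with an opposite-strand peak within a given distance in bases (log axis), for isolated peaks, all other peaks and the 5′-most peak of each chain; right, share (%) of nearest opposite-strand peaks on the 5′ side by distance, with Wilson 95% intervals and a dotted line at 50%. Within 100 kb the curves stood at 48.9, 59.0 and 57.6%, and on the 5′ side the isolated share was 90.5% within 1000 bases and 48.8% beyond 50000 bases.

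The 75 isolated peaks with an opposite-strand peak within 1000 bases had larger widths and fewer whole-number ratios than those with no opposite-strand peak nearby. Their median distance to it was 461 bases, their median width was 42 bases, and 34.7% (Wilson interval 24.9 to 45.9%) were at whole-number ratios. The median width was 33 bases and the whole-number share 66.1% (63.6 to 68.5%) for the 1450 isolated peaks with no opposite-strand peak within 50000 bases. The other peaks differed in the same directions. Their median width was 42 bases within 1000 bases of an opposite-strand peak and 32 bases beyond 50000, with whole-number shares of 20.2% and 29.4%. In 69 of the 75 the opposite-strand peak belonged to a chain, with a median of 6 peaks over all 75 partners, and in 6 it was isolated too. The isolated peak had the higher fold in 37 pairs, the lower in 35 and the same in 3. Besides the chromosome 2 peak described above, 2 of the 75 reached 8-fold. One was on chromosome 17, plus strand, at 34324834 to 34324877. Its log2 fold was 3.7, and its opposite-strand partner 574 bases away was also isolated (log2 fold 1.82). The other was on chromosome 16, minus strand, at 20620374 to 20620397. Its log2 fold was 3.05, and its partner was 581 bases away (log2 fold 2.82). A single isolated peak overlapped an opposite-strand peak, on chromosome 7, minus strand, at 20506322 to 20506372, at a log2 fold of 1.03 against 1.73 for the other strand.

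Isolated peaks were spread more evenly over the chromosomes than the list as a whole. Per Mb up to the last peak, the 20 chromosomes with isolated peaks held 0.678 to 1.176 isolated peaks, a 1.73-fold range, and 5.92 to 34.3 peaks in all, a 5.79-fold range. The share of a chromosome's peaks that were isolated was thus highest where peaks were sparse, which is built into a rule on distance (Spearman coefficient -0.91 over 20 chromosomes of the same list). The same rule narrows the range per Mb, because it leaves a smaller share isolated where peaks are dense. The evenness is therefore not read as a trait of the isolated peaks. Chromosome X had the highest share, 138 of 986 peaks or 14.0% (Wilson interval 12 to 16.3%), and chromosome 6 the next, 129 of 1803 or 7.15% (6.05 to 8.44%). The lowest shares were on chromosome 8, 89 of 3796 or 2.34% (1.91 to 2.88%), and on chromosome 11, 139 of 4176 or 3.33% (2.83 to 3.92%). Chromosome Y and the mitochondrial chromosome had 0 isolated peaks among 6 and 7.

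**Figure D5:**
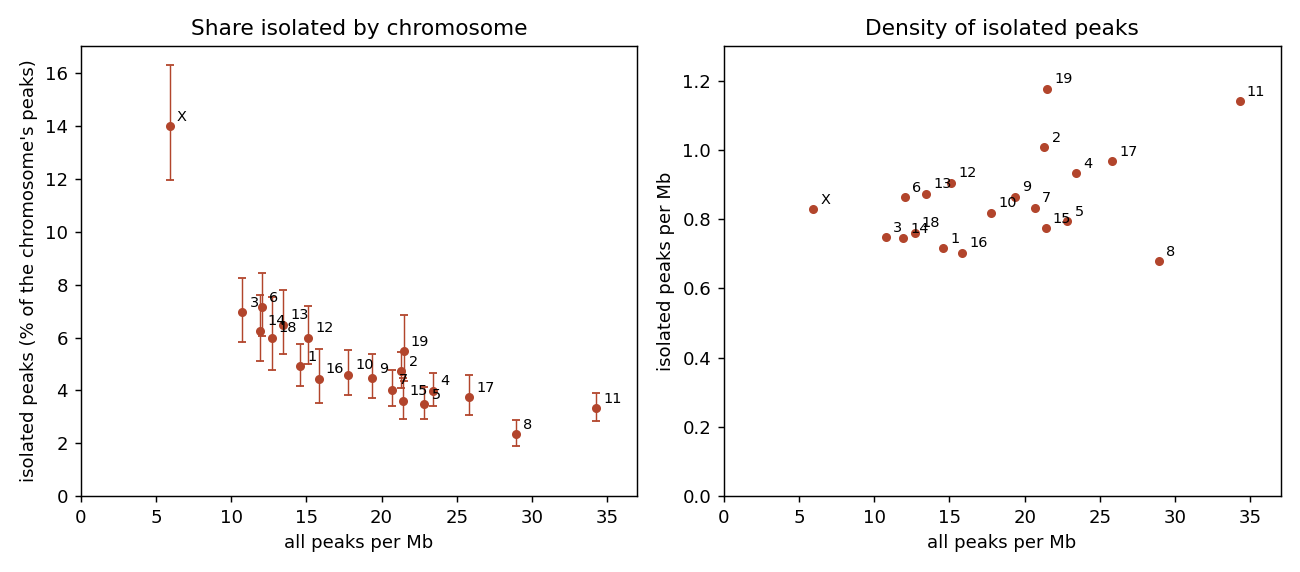
Left, isolated peaks as a share (%) of each chromosome's peaks against all peaks per Mb, with Wilson 95% intervals; right, isolated peaks per Mb against all peaks per Mb; points are the 20 chromosomes with isolated peaks. Chromosome X stood at 14.0% and chromosome 8 at 2.34%, while isolated peaks per Mb ranged from 0.678 to 1.176.

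The fold pattern recurred on nearly every chromosome. The isolated median log2 fold was above that of the other peaks on all 20, and on 19 it was the 3-to-1 value of 1.82; on chromosome 8 it was 1.74. The means separated less clearly, with isolated peaks higher on 16 chromosomes and lower on 4. Chromosome 9 held 107 isolated peaks and 0 at 8-fold or more, and chromosome 4 held 145 with 9 at 8-fold or more. These were the lowest and highest counts of the 20 chromosomes, beside 3.54% of all isolated peaks and 4.03% of the whole list. The share of all peaks at 8-fold was not computed by chromosome, so no difference between chromosomes is read from these counts. Width showed no common direction, as the isolated median was wider on 11 chromosomes, narrower on 7 and equal on 2. The isolated peaks of chromosome X had a median width of 35 bases, 65.2% at whole-number ratios, and 3 at 8-fold or more. The strands were nearly equal, with 1118 isolated peaks (50.1%, Wilson interval 48.0 to 52.2%) on the plus strand.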

How the data were processed

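eCLIP reads of 2 IP and 2 input libraries were processed by the authors with cutadapt 1.18 and STAR 2.6.1b on mm9, per the submitters' processing notes. For the peak caller and the joining of replicates, nothing is stated in the sources used here. Filters are not described either, though the name of the list ends in FC2, which can stand for a fold limit of 2. The authors deposited 1 peak list with log2 folds of IP over input. The scale was read from the values, all of them above 1, and from the name of the list. Starts were changed to count from 1. Distances are bases between peak edges. The constant for whole-number ratios was found by trying the commonest value as each ratio of whole numbers up to 6 and keeping the one that gave the smallest numbers over the 20 commonest values; a match had a relative tolerance of 1e-07. That choice fixes which ratio each value is named by, and so which values count as whole-number ratios. No other constant was tried for the shares at whole-number ratios. Intervals are Wilson for shares, Newcombe for differences and binomial order statistics for medians. Members and lists were chosen with earlier results of these data known. Named peaks are the 10 with the highest fold, the 5 widest, the 5 most remote, those at the limit, that overlapping the opposite strand, and the extreme chromosomes. The series of isolated peaks and the close opposite-strand peaks beyond these were picked with their values known. The procedures were tested on simulated data. Python 3.11.15, numpy 2.4.6, pandas 2.3.3, scipy 1.17.1 and matplotlib 3.10.9 were used. The GRCm38 annotation was not used.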

Additional observations from a re-analysis of the deposited data

How the results depend on the processing

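Of 72 alternative values, 49 stayed within the set range, 22 moved and 1 reversed. The number of isolated peaks was 4340 at a limit of 25 kb and 1234 at 100 kb. It was 2918 in the list limited to 4-fold or above, where the rule was applied anew. The difference in median log2 fold (0.17) turned to -0.044 with the list limited to 4-fold or above, a limit that acts on the compared value itself. It was 0.18 against peaks with a neighbour 10 to 50 kb away, 0.10 against the highest peak of each stretch joined at 1000 bases, 0.074 with means and 0.14 against the 5′-most peaks of chains; the last pair was chosen after seeing the data, as was leaving out chromosome X, which moved none of the 7 results. The share at 8-fold or more was 12.4% in the list limited to 4-fold or above, by construction. The difference in median width (0 bases) was -2 at 25 kb, 2 at 100 kb, -2 with a minimum width of 20 bases and -2 at 4-fold or above. Against the 3 comparison sets in the same order it was 4, 3 and -5 bases, and with means it was -1.79. The share with an opposite-strand peak within 50000 bases was 31.2% at a limit of 25 kb, 31.9% with the minimum width, 21.3% at 4-fold or above and 11.4% within 10 kb. The share at whole-number ratios was 57.0% at 25 kb, 53.4% with the minimum width and 55.3% at 4-fold or above. The causes were not tested. No paired analysis was possible because the list has no values per library, so no replicate could be left out either, and what depth limits could not be measured.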

Other observations

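Isolated single peaks were not the only lone positions. When peaks up to 1000 bases apart were joined first, 2835 stretches stood alone on their strand by the same limit of 50000 bases, and 604 of these (21.3%) held 2 or more peaks, which were outside the isolated set by its rule. Their 1954 peaks had a median log2 fold of 1.73, a median width of 42 bases and 18.1% at whole-number ratios, against 1.82, 32 bases and 61.2% for the isolated peaks. At 8-fold or more were 4.30% of them, beside 4.03% of the whole list. Among them were 15 stretches of 10 or more peaks. The largest, on chromosome 1, plus strand, at 88423514 to 88425212, held 31 peaks (median log2 fold 2.51), and its nearest same-strand peak was 76.9 kb away. The next held 19 peaks on chromosome 11, plus strand, at 120815504 to 120819616 (median log2 fold 1.58) and 16 on chromosome 12, minus strand, at 111929856 to 111934438 (median 1.26).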
